A study of Mus musculus with 8 samples.

Results

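Immediate early genes were examined in the hearts of HVCN1 null and wild-type (WT) mice, as the levels of 10 genes chosen by name: Fos, Fosb, Jun, Junb, Egr1, Egr2, Ier2, Atf3, Nr4a1 and Dusp1. All 10 were found by Ensembl identifier among the 39056 genes of the count table, and all 10 were among the 14796 genes that passed the filter on low counts. The animals were male and 3 months old, and each heart gave 1 RNA-seq library. Hearts 1 to 4 came from HVCN1-/- mice, called Hv1 null in the labels, in which the gene of the voltage-gated proton channel is knocked out. Hearts 5 to 8 came from WT mice, and the study names a C57BL/6 background. No agent or stimulus given to the mice is named in the sources used here, and the means of killing is not named either. Neither the hour of collection nor the time from death to RNA extraction is given there. Total counts ran from 25851255 to 38874640 per heart. Levels are given as CPM, counts brought to a common library size with edgeR's TMM scaling. Hvcn1 itself lay between 0.0380 and 0.180 CPM in HVCN1 null hearts and between 1.51 and 2.62 CPM in WT hearts, in keeping with the genotype labels.

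Immediate early genes are transcribed within minutes of a stimulus without prior protein synthesis, because the factors that switch them on, such as SRF with its ternary complex partners and CREB, are already bound or waiting in the resting cell and are activated by MAP kinase, calcium and cyclic AMP signalling. Their products are mostly transcription factors. FOS and JUN proteins pair into AP-1, ATF3 binds related sites, EGR1 and EGR2 are zinc finger proteins, and NR4A1 is an orphan nuclear receptor. IER2 is a nuclear protein induced by growth factors, and DUSP1 is a phosphatase that switches MAP kinases off. In heart muscle they are known to respond to stretch, adrenergic drive and ischaemia, and in any tissue they can respond to handling and dissection.

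These promoters are shown because they belong to the members on which the results below turn: Fos, Nr4a1, Dusp1 and Jun. The sequences were taken from RefSeq on GRCm38.p6 and run 5′ to 3′ along the gene's own strand, from 250 bases before the transcription start to 50 after it. The Fos window is chr12:85473640-85473939 on the plus strand, the Nr4a1 window chr15:101266596-101266895 on the plus strand, the Dusp1 window chr17:26508423-26508722 on the minus strand and the Jun window chr4:95052173-95052472 on the minus strand. In the first 3, capitals mark TGACG, the core of the CRE bound by CREB and ATF factors, on either strand, so that CGTCA is the same core on the other strand. In Jun, which held no TGACG, capitals mark TGANNTCA, the spacing to which JUN and ATF dimers are known to bind.
Fos: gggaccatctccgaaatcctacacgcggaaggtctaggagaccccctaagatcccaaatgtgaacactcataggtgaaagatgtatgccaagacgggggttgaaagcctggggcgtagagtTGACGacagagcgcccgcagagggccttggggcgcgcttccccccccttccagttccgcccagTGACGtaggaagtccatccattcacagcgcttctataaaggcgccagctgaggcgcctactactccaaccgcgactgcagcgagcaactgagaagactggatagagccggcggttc
Nr4a1: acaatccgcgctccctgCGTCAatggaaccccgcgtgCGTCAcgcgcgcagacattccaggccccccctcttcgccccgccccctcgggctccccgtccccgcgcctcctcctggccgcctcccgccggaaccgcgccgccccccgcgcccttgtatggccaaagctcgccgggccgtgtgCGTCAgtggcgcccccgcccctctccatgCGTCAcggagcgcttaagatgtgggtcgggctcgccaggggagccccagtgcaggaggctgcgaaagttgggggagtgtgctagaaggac
Dusp1: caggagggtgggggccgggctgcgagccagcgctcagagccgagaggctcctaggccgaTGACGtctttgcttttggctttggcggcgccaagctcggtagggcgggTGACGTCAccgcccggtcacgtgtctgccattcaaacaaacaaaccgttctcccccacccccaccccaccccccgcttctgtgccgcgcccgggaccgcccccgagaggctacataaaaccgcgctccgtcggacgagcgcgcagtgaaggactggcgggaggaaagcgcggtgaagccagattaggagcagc
Jun: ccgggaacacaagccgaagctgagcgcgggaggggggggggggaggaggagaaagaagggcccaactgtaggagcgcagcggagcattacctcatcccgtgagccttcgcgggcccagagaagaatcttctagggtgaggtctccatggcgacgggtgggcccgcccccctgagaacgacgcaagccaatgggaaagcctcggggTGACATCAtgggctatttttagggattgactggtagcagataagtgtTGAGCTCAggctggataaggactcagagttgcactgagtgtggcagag

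The Nr4a1 window held 4 of these cores, at 233, 213, 69 and 40 bases before the start. Fos held 2, at 129 and 66 bases before it, the nearer one lying upstream of a TATAAA at 33. In Dusp1 there were 3, of which those at 143 and 140 overlap head to head as the full palindrome TGACGTCA. That palindrome also matches TGANNTCA. Jun carried TGANNTCA at 45 bases before the start and a further match just after it. Windows were found for 8 of the 10 members, all but Egr1 and Ier2. At least 1 TGACG was present in 7 of those 8 (Fos, Fosb, Junb, Egr2, Atf3, Nr4a1 and Dusp1), against 23.0% of the 27025 genes with a window, and TGACGTCA in 1 of 8 against 2.03%. TGANNTCA was present in 3 of 8 (Jun, Egr2 and Dusp1) against 15.9% of genes, and TGANTCA in none against 8.97%. The SRF element known as the CArG box was found in Egr2 only, against 1.81% of genes, and the EGR letters GCGNGGGCG in Fosb and Nr4a1 against 6.27%. TATAAA occurred in Fos and Junb against 15.7%. All were searched on both strands. The members' windows were 56.0% to 72.3% G and C, beside a median of 52.7% over all windows, and the comparison was not matched for that. The motifs were chosen after the sequences were seen, so the shares beside those of all genes are no test of enrichment. These matches describe letters in short windows and say nothing of binding, and Egr2 had 5 windows in which to match.

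The question put to the counts was whether these genes differed between HVCN1 null and WT hearts and how they moved together from heart to heart. None of the 10 was called a DEG by edgeR's quasi-likelihood test at an adjusted p under 0.05, where 1.14% of all tested genes were called. By unadjusted p under 0.05 there were 2 members, Jun and Nr4a1, both higher in HVCN1 null hearts, beside 11.0% of all tested genes. The same 2 passed that unadjusted limit in edgeR's exact and likelihood ratio tests, in DESeq2 and in limma's voom, and only DESeq2 called a member after adjustment, Jun with an adjusted p of 0.0357. The groups did not overlap for 1 member, Jun, beside 7.06% of all tested genes. Mean CPM was higher in HVCN1 null hearts for 7 of the 10, and the median log2 fold change of the members was 0.20 against -0.01 over all tested genes. In whole hearts, a change in the number of cells of a type and a change in RNA per cell cannot be told apart.

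**Figure D1:**
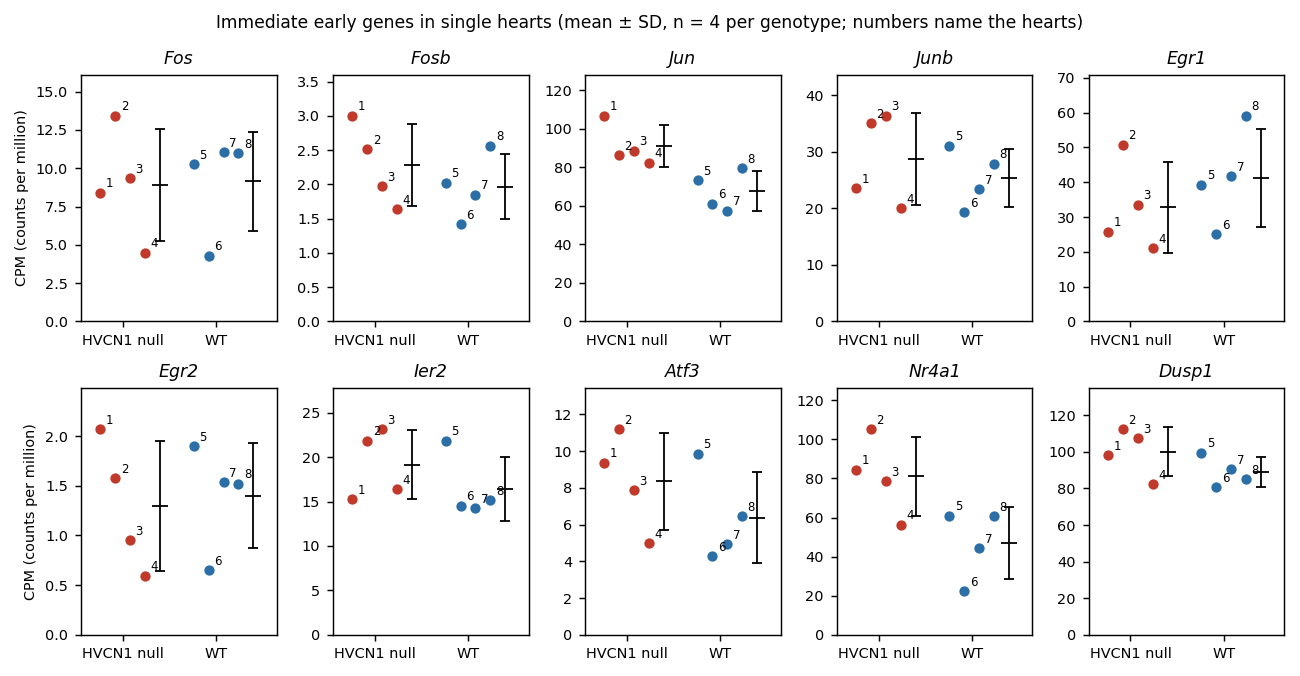
CPM of each immediate early gene (vertical axis, from 0) in single hearts, with HVCN1 null hearts 1 to 4 in red, WT hearts 5 to 8 in blue, and the mean ± SD (n = 4) in black. Only the Jun panel has no overlap between the groups, with the lowest HVCN1 null heart at 82.4 and the highest WT heart at 79.5, and heart 6 lies at or near the bottom of every panel.

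Among the AP-1 genes, Jun showed the clearest difference. Jun (ENSMUSG00000052684, chr4:95049034-95052222, minus strand) encodes the partner that can bind DNA as a homodimer or with FOS. Its level was 107, 86.3, 88.7 and 82.4 CPM in HVCN1 null hearts, in the order of hearts 1 to 4 used throughout, and 73.5, 61.1, 57.4 and 79.5 CPM in WT hearts, in the order of hearts 5 to 8. All 4 HVCN1 null hearts lay above all 4 WT hearts. The means were 91.1 ± 10.8 and 67.9 ± 10.4 CPM (SD, n = 4 per genotype), which is a log2 fold change of 0.42 (SE 0.13, 95% interval 0.14 to 0.71, edgeR quasi-likelihood adjusted p = 0.199). The two-sided exact permutation test of mean CPM gave p = 0.0286, the smallest that 4 against 4 hearts allow. With any of the 4 HVCN1 null hearts left out, that exact permutation p was 0.0571, while the groups still did not overlap and the log2 fold change lay between 0.34 and 0.47. With any WT heart left out the p stayed at 0.0286 and the log2 fold change lay between 0.36 and 0.51. The antisense gene Junos overlaps Jun by 689 bases, and the strand setting of the counting is not stated.

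Fos, the AP-1 partner that needs JUN to bind DNA, did not separate the genotypes. Fos (ENSMUSG00000021250, chr12:85473890-85477273, plus strand) was at 8.41, 13.4, 9.35 and 4.49 CPM in HVCN1 null hearts and at 10.2, 4.30, 11.1 and 11.0 CPM in WT hearts. A single heart of each genotype stood low, heart 4 and heart 6, and the other 6 lay between 8.41 and 13.4 CPM. The means were 8.92 ± 3.67 and 9.14 ± 3.25 CPM, a log2 fold change of -0.04 (SE 0.34, adjusted p = 0.993), whose 95% interval of -0.80 to 0.72 leaves room for changes in both directions. The sign turned without HVCN1 null heart 4 (0.19) and without WT heart 5, 7 or 8 (0.03 to 0.07). Its paralogue Fosb (ENSMUSG00000003545, chr7:19302696-19310051, minus strand) was far less abundant, at 3.002, 2.51, 1.98 and 1.64 CPM in HVCN1 null hearts and 2.02, 1.42, 1.85 and 2.57 CPM in WT hearts. Its groups overlapped over most of their range, with a log2 fold change of 0.22 (SE 0.25, adjusted p = 0.866). Junb (ENSMUSG00000052837, chr8:84974484-84978718, minus strand), a JUN protein often opposed to JUN in its effect, was at 23.5, 35.0, 36.4 and 19.98 CPM in HVCN1 null hearts and 31.0, 19.3, 23.4 and 27.9 CPM in WT hearts. Hearts 2 and 3 were the highest of the 8 and hearts 4 and 6 the lowest, so the order followed single hearts rather than genotype (log2 fold change 0.18, SE 0.21, adjusted p = 0.870). Junb shares 351 bases with Prdx2 on the opposite strand, a gene with 72232 counts over the 8 hearts, so some Junb counts are uncertain.

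Atf3, a stress-induced repressor related to CREB, had a higher mean in HVCN1 null hearts without passing the test. Atf3 (ENSMUSG00000026628, chr1:191170296-191218039, minus strand) was at 9.37, 11.2, 7.87 and 4.97 CPM in HVCN1 null hearts and 9.87, 4.26, 4.95 and 6.45 CPM in WT hearts. WT heart 5 reached the level of the higher HVCN1 null hearts, and heart 4 that of the lower WT hearts. The log2 fold change was 0.39 (SE 0.29, adjusted p = 0.757). Ier2 (ENSMUSG00000053560, chr8:84661331-84662852, minus strand) was at 15.3, 21.9, 23.2 and 16.4 CPM in HVCN1 null hearts and 21.9, 14.6, 14.2 and 15.1 CPM in WT hearts. Hearts 2, 3 and 5 were high and the remaining 5 low, so both genotypes were on both sides (log2 fold change 0.22, SE 0.18, adjusted p = 0.777).

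The zinc finger genes had lower means in HVCN1 null hearts, and neither passed the test. Egr1 (ENSMUSG00000038418, chr18:34859823-34864984, plus strand), which couples growth signals to matrix and inflammatory genes, was at 25.7, 50.8, 33.6 and 21.0 CPM in HVCN1 null hearts and 39.3, 25.0, 41.7 and 59.1 CPM in WT hearts. The highest level was in WT heart 8 and the next in HVCN1 null heart 2. The means were 32.8 ± 13.1 and 41.3 ± 14.0 CPM, a log2 fold change of -0.33 (SE 0.29, adjusted p = 0.812). Egr2 (ENSMUSG00000037868, chr10:67535475-67542188, plus strand) was at 2.07, 1.58, 0.950 and 0.593 CPM in HVCN1 null hearts and 1.90, 0.649, 1.53 and 1.52 CPM in WT hearts. It rested on as few as 21 counts in a heart, which alone gives a counting error of 21.8%, and its log2 fold change was -0.11 (SE 0.41, adjusted p = 0.975). That sign turned without HVCN1 null heart 3 (0.01) or 4 (0.13) or WT heart 5 (0.08).

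Nr4a1 had the largest fold change of the 10. Nr4a1 (ENSMUSG00000023034, chr15:101254269-101274795, plus strand), an orphan receptor induced in the heart by adrenergic signalling, was at 84.4, 105, 78.5 and 56.3 CPM in HVCN1 null hearts and 61.0, 22.2, 44.4 and 60.6 CPM in WT hearts. HVCN1 null hearts 1, 2 and 3 lay above all WT hearts, while heart 4 fell below WT hearts 5 and 8. The means were 81.1 ± 20.2 and 47.0 ± 18.3 CPM, 1.73-fold, with a log2 fold change of 0.79 (SE 0.29, 95% interval 0.14 to 1.43, edgeR quasi-likelihood adjusted p = 0.322). The two-sided exact permutation test gave p = 0.0857. Without HVCN1 null heart 4 the groups no longer overlapped, with an exact permutation p of 0.0286 and a log2 fold change of 0.93. Heart 4 was the only HVCN1 null heart below a WT heart, so leaving it out separates the groups by construction. With any other heart left out the groups overlapped, and the exact permutation p lay between 0.0857 and 0.171. Dusp1 (ENSMUSG00000024190, chr17:26505590-26562128, minus strand), the MAP kinase phosphatase, was the steadiest member, at 98.3, 112, 108 and 82.4 CPM in HVCN1 null hearts and 99.5, 80.8, 90.5 and 85.1 CPM in WT hearts. Its highest heart was 1.39 times its lowest, against 4.75 times for Nr4a1 and 3.13 times for Fos, and its log2 fold change was 0.17 (SE 0.11, adjusted p = 0.698). Its annotated span shares 640 bases with Ergic1 on the opposite strand, a gene with 11575 counts over the 8 hearts, and 1853 bases with the intronic gene AC122252.1 on its own strand, so some Dusp1 counts are uncertain too.

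**Figure D2:**
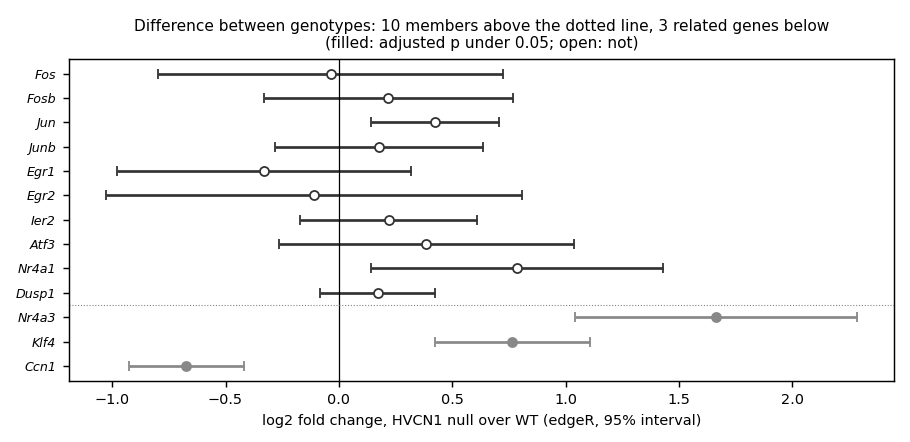
Log2 fold change of HVCN1 null over WT hearts (horizontal axis) with 95% intervals from edgeR, for the 10 immediate early genes above the dotted line and the 3 DEGs of the wider induced gene lists below it. Jun at 0.42 and Nr4a1 at 0.79 are the members whose intervals lie above 0, and filled points (Nr4a3, Klf4 and Ccn1) mark an adjusted p under 0.05.

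Compared per transcript length as RPKM over the 8 hearts, the members spanned a wide range of levels. Dusp1 was at 28.6 ± 3.56, Jun at 24.9 ± 4.96 and Nr4a1 at 18.3 ± 7.26 RPKM (SD, n = 8). Junb at 11.8 ± 2.86, Ier2 at 11.7 ± 2.49 and Egr1 at 8.26 ± 2.97 RPKM formed the middle, followed by Fos at 3.84 ± 1.37 and Atf3 at 3.42 ± 1.21 RPKM. Egr2 at 0.397 ± 0.163 and Fosb at 0.340 ± 0.0846 RPKM were the lowest. Egr1 lay above Fos, and Atf3 above Egr2, in all 8 hearts, and Dusp1 lay above Jun in 6 of 8, whereas Junb exceeded Ier2 in 5 of 8 hearts, Fos exceeded Atf3 in 4 of 8 and Egr2 exceeded Fosb in 5 of 8, so these neighbours did not differ beyond their spread. By this scale Fos stood well below its partners Jun and Junb.

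The members varied more between hearts of the same genotype than most genes did. The SD of log2 CPM within genotype had a median of 0.44 over the members and 0.21 over all tested genes. It was above the median of all genes for 8 of the 10, and above their 90th percentile for 4, Fos, Egr1, Egr2 and Nr4a1. Egr2 was the most variable, at 0.70, and Dusp1 the least, at 0.17. Jun, at 0.19, was the only other member under the median.

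The variation was shared. With log2 CPM scaled per gene over the 8 hearts, the mean of the 10 members was 0.41, 1.02, 0.48 and -0.86 SD units in HVCN1 null hearts and 0.46, -1.33, -0.37 and 0.20 SD units in WT hearts. Heart 6 was the lowest of all for 6 members and among the lowest 2 for all 10. Heart 4 was among the lowest 2 for 6 members, and heart 2 was above the median for all 10 and the highest for 4. A low heart thus occurred in each genotype, and a high one in the HVCN1 null group.

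**Figure D3:**
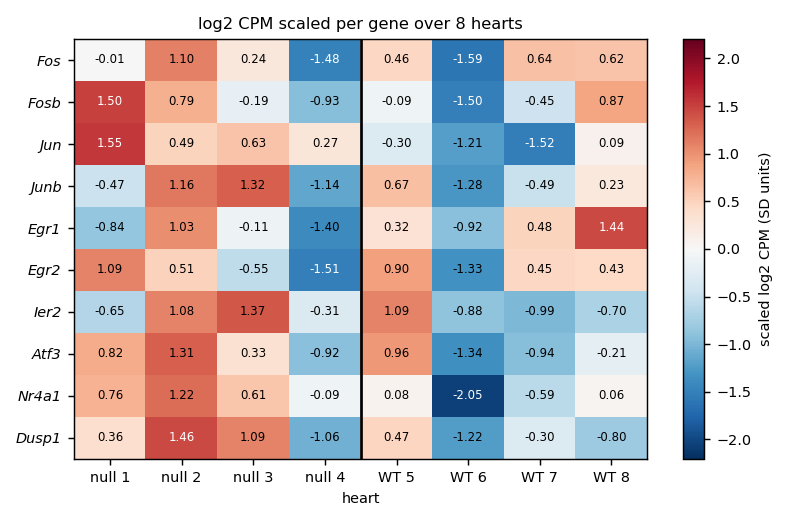
Log2 CPM of each member (vertical) in each heart (horizontal), scaled per gene to SD units over the 8 hearts, with red above and blue below the gene's mean and the black line between genotypes. The columns of hearts 4 and 6 are mostly blue and that of heart 2 wholly red, while Jun and Ier2 depart from the common pattern in several hearts.

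Over the 45 pairs of members, Pearson r of log2 CPM across the 8 hearts had a median of 0.65 and ran from -0.12 to 0.87. It was at least 0.7 for 18 pairs, or 40.0%, against 5.22% of all pairs of tested genes, whose median was -0.003. When each gene was centred on the mean of its genotype, the median was 0.70 and 23 pairs, or 51.1%, reached 0.7, against 7.31% of all pairs, so the co-variation was present within genotypes. Leaving out WT heart 6 reduced the pairs at 0.7 or more to 10, or 22.2%, against 6.38% of all pairs in the same 7 hearts. Leaving out hearts 4 and 6 together left 9 pairs, or 20%, against 8.25% of all pairs, and a median r of 0.24. Hearts 4 and 6 were chosen for their low member means, so leaving them out narrows the range the members share and lowers their r in part by construction, which does not hold for the pairs of all genes. The jackknife error of the median r over hearts was 0.18. All values of a heart come from the same library and scaling factor, and the pairs share genes, so the counts of pairs describe these 8 libraries.

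**Figure D4:**
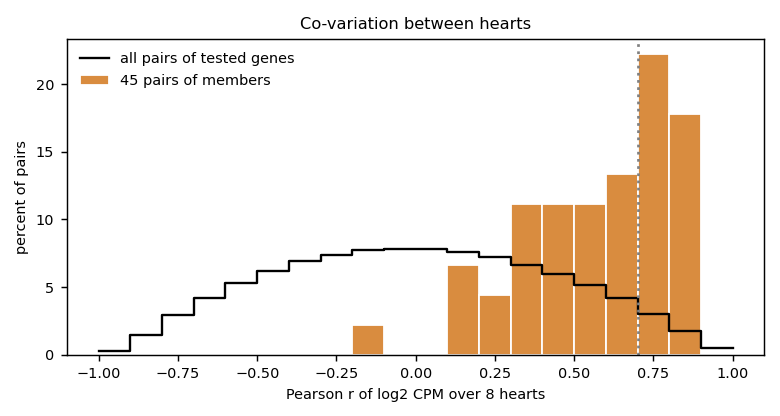
Percent of gene pairs (vertical axis) by Pearson r of log2 CPM over 8 hearts (horizontal axis, bins of 0.1), for the 45 pairs of members as bars and for all pairs of tested genes as a line. The dotted line marks 0.7, which 40.0% of member pairs and 5.22% of all pairs reached.

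Single pairs differed in how far they depended on the low hearts. The highest r was that of Atf3 and Dusp1, 0.87 (rho 0.86, two-sided exact permutation p = 0.0102 for r and 0.0107 for rho, n = 8, unadjusted among 45 pairs). Without hearts 2 and 6, the farthest from the median of Atf3, it was 0.74. Fos and Egr1 followed each other closely, with r 0.86 (rho 0.90, exact permutation p = 0.00384 and 0.00456, n = 8), and still 0.83 without hearts 4 and 6. These 2 pairs held without the extreme hearts.

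Other pairs with Fos did not. Fos and Dusp1 had r 0.70 (rho 0.62, exact permutation p = 0.0550 and 0.115, n = 8), which became 0.14 without hearts 4 and 6. Fos and its paralogue Fosb had r 0.68 (rho 0.45, exact permutation p = 0.0654 and 0.267, n = 8), which became -0.15 without the same hearts. Both r values fell without those hearts, the farthest from the median of Fos, and leaving them out narrows its range by construction. Centred within genotype over all 8 hearts, r was 0.83 for Fos and Dusp1 and 0.73 for Fos and Fosb. Fos and Jun, the classical AP-1 partners, had r 0.17 (rho -0.10, exact permutation p = 0.701 and 0.840, n = 8), and -0.44 without hearts 4 and 6.

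The median pair was Fos and Nr4a1, with r 0.65 (rho 0.40, exact permutation p = 0.0807 and 0.327, n = 8), 0.08 without hearts 4 and 6, and 0.91 when centred within genotype, the highest centred value of the 45. Egr1 and Nr4a1 had r 0.34 (rho 0.31, exact permutation p = 0.425 and 0.462, n = 8) and 0.48 without hearts 4 and 8, the 2 farthest from the median of Egr1. Centred within genotype, their r was 0.83. In both pairs the centred value was the higher. The lowest r was that of Jun and Egr1, -0.12 (rho -0.14, exact permutation p = 0.774 and 0.752, n = 8), and it was -0.41 without hearts 6 and 7.

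**Figure D5:**
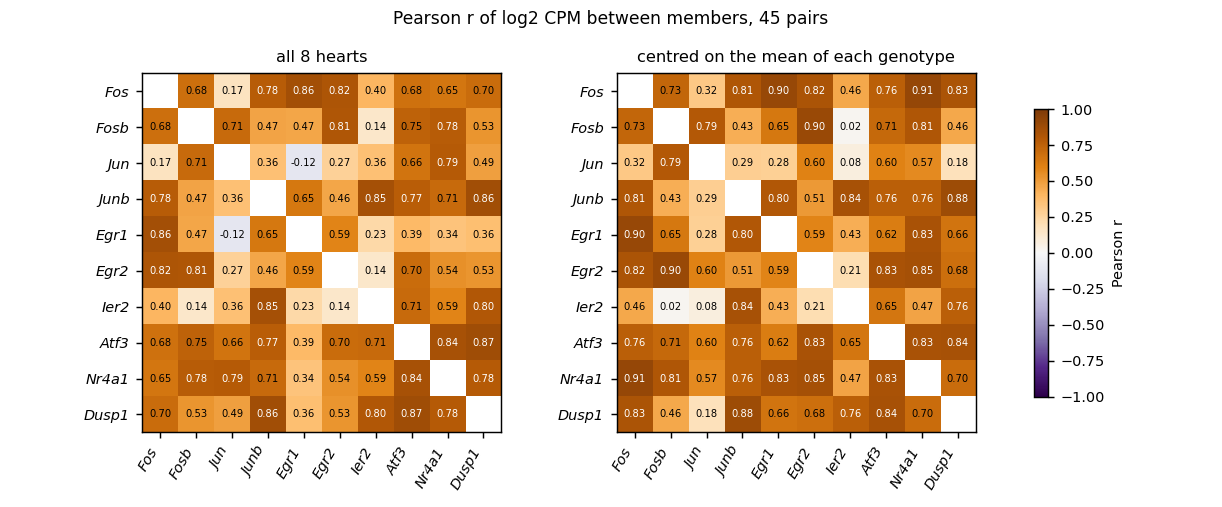
Pearson r of log2 CPM between each pair of members, over the 8 hearts as measured on the left and after centring on the genotype mean on the right, from purple at -1 to brown at 1. On the left Jun and Egr1 have the palest columns, with r of -0.12 between them, and on the right no pair is below 0.

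Against the mean of the 9 remaining members, Atf3 had the highest r, 0.92, followed by Nr4a1 at 0.86, Dusp1 at 0.85, Junb at 0.84 and Fos at 0.82. Fosb was at 0.75, Egr2 at 0.68 and Ier2 at 0.58. Egr1 at 0.52 and Jun at 0.50 followed the rest least. The values of Egr1 and Jun were too close over 8 hearts to rank one below the other.

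The member mean was set beside other measures of the libraries over the 8 hearts, as a description. Here and below, the summed level of a gene list entered each r as its log2 value, not on the linear scale. Its r was -0.09 with the total count, 0.03 with the mitochondrial share of counts, which ran from 23.7% to 30.2%, and 0.28 with the TMM factor. With the summed level of the 6 cardiomyocyte markers it was -0.64, and with that of the 4 atrial markers 0.47. The atrial sum ran from 308 to 4008 CPM in HVCN1 null hearts and from 84.6 to 7595 CPM in WT hearts, with Myl7, the atrial light chain, at 0.618 CPM in heart 6 and 0.169 in heart 8 against 1185 in heart 7, and with no count of Sln, an atrial calcium pump regulator, in heart 8. The sum was 122 CPM in heart 6 and 309 in heart 4, the 2 hearts lowest in the member mean, and 84.6 in heart 8 and 308 in heart 1, whose member means were 0.20 and 0.41. In the remaining 4 hearts it was 3178 CPM or more. The part of atrial tissue in the member levels was not tested. The lists of endothelial, fibroblast, macrophage, neutrophil, T cell, B cell, erythroid and adipocyte markers had summed levels with r between -0.27 and 0.37 with the member mean. None of their genes was called between genotypes, where 1.14% of all tested genes were called. In lists this short that share gives few or no calls. At an unadjusted p under 0.05 there were 2 of the 5 macrophage markers, both lower in HVCN1 null hearts, and none in the other lists, against 11.0% of all tested genes. For the 6 smooth muscle and pericyte markers r was 0.34. Cardiomyocyte markers were abundant in every heart, Myh6 at 24793 CPM or more, as the tissue label requires. None of the 6 or of the 4 atrial markers was called, beside the same 1.14% of all tested genes.

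Among the 10 tested genes outside the list whose log2 CPM followed the member mean most closely over the 8 hearts were Matn4 (r 0.95), Zc3h12a (0.95), D1Ertd622e (0.94), Capn10 (0.94), Sema5b (0.93), Cdca7l (0.92), Dcbld1 (0.91), Mcm5 (0.90) and Etnk2 (0.90). Over all tested genes 310, or 2.1%, had r of at least 0.7 with it, the members included. Zc3h12a, an endonuclease that degrades inflammatory mRNAs, was at 8.86, 8.64, 8.36 and 6.81 CPM in HVCN1 null hearts and 8.35, 5.78, 7.09 and 7.53 CPM in WT hearts. It repeated the low values of hearts 4 and 6 within a narrower range, in part by construction, since these genes were picked by their r with the member mean. Matn4 and Cdca7l had as few as 12 and 5 counts in a heart.

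Relatives of the members were read from a list of 24 genes of the FOS, JUN, EGR, NR4A and DUSP families and their partners. This list and those below were chosen with earlier results of these data known, so their counts are descriptive. Of the 24 relatives 22 were tested. Of these 13 had a positive and 9 a negative log2 fold change, and the median was 0.16. An unadjusted p under 0.05 was found for 5, against 11.0% of all tested genes. The only one called was Nr4a3, where 1.14% of all tested genes were called. Nr4a3, the NR4A receptor closest in role to Nr4a1, was at 20.9, 16.5, 12.5 and 7.46 CPM in HVCN1 null hearts and 5.44, 4.02, 4.97 and 3.58 CPM in WT hearts. Every HVCN1 null heart lay above every WT heart, and heart 4 was again the lowest of its group. Its log2 fold change was 1.66 (SE 0.28, edgeR quasi-likelihood adjusted p = 0.0202), and the adjusted p was 0.0807 without WT heart 6, 0.0659 without WT heart 8 and 0.0552 by voom. The remaining receptor, Nr4a2, was at 2.40 to 5.24 CPM in HVCN1 null and 1.42 to 2.99 CPM in WT hearts (log2 fold change 0.60, SE 0.29, adjusted p = 0.515). It had the highest r of the list with the member mean, 0.84, while Nr4a3 had 0.59 and Dusp10, with the lowest r, -0.50. Dusp2 (log2 fold change 0.91, adjusted p = 0.539) and Dusp5 (0.63, adjusted p = 0.336), phosphatases of the same family as Dusp1, completed the 4 largest changes.

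Among 41 other primary response genes, 40 were tested, 22 with a positive and 18 with a negative log2 fold change. Of these 2 were called, in opposite directions, where 1.14% of all tested genes were called. At an unadjusted p under 0.05 there were 15 of the 40, 10 higher and 5 lower in HVCN1 null hearts, against 11.0% of all tested genes. Klf4, a zinc finger factor of vessel and muscle cells, was at 104, 81.8, 72.7 and 59.2 CPM in HVCN1 null hearts and 51.4, 47.5, 45.8 and 42.3 CPM in WT hearts. Its groups did not overlap (log2 fold change 0.77, SE 0.15, adjusted p = 0.0489), though the call was lost in 10 of 16 alternatives, among them without HVCN1 null heart 1, 2 or 3 or any WT heart (adjusted p from 0.0761 to 0.152). Ccn1, listed in the annotation as Cyr61, a matrix protein induced by YAP and serum, was at 53.5, 45.3, 50.05 and 48.6 CPM in HVCN1 null hearts and 91.0, 82.7, 63.9 and 77.0 CPM in WT hearts. Every HVCN1 null heart lay below every WT heart (log2 fold change -0.67, SE 0.11, adjusted p = 0.0205), and the call was lost without HVCN1 null heart 2, 3 or 4 or WT heart 5, 6 or 8 (adjusted p from 0.0553 to 0.0807). Npas4 (1.11, adjusted p = 0.431), Myc (-0.75, adjusted p = 0.298) and Cxcl1 (-0.74, adjusted p = 0.363) had the largest log2 fold changes of the list beside Klf4 and did not pass the test. Plk3 had the highest r with the member mean, 0.86, and Btg1 the lowest, -0.33.

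The kinases and transcription factors that act upstream were measured in 29 genes, all tested. None was called by edgeR's quasi-likelihood test, where 1.14% of all tested genes were called. At an unadjusted p under 0.05 there were 2 of the 29, against 11.0% of all tested genes. Their log2 fold changes ran from -0.39 for Rps6ka2 to 0.27 for Crtc3, a CREB coactivator, with a median of 0.01. Crtc3 was at 23.2 to 28.1 CPM in HVCN1 null and 20.8 to 22.9 CPM in WT hearts, without overlap (adjusted p = 0.221). Rps6ka5 (-0.25) and Crem (0.21) followed in size. Crtc2 had the highest r with the member mean, 0.68, and Map2k6 the lowest, -0.57. An r of at least 0.7 was reached by 3 of 22 relatives, 6 of 40 other primary response genes and none of the 29, against 2.1% of all tested genes. At that share, none among 29 does not set the upstream genes apart. The summed level of the relatives had r 0.73 with the member mean over the 8 hearts, that of the other primary response genes 0.69 and that of the upstream genes -0.41.

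Stress-induced genes outside the immediate early class gave a different order of hearts. Of 10 heat shock genes 3 were called, all higher in HVCN1 null hearts, where 1.14% of all tested genes were called. The same number had an unadjusted p under 0.05, against 11.0% of all tested genes. Dnajb1, a co-chaperone, was at 43.0, 27.4, 38.99 and 29.5 CPM in HVCN1 null hearts and 15.4, 12.8, 16.3 and 16.0 CPM in WT hearts (log2 fold change 1.19, SE 0.15, adjusted p = 0.00410). Hspa1a (2.67, adjusted p = 0.0202) and Hspa1b (3.02, adjusted p = 0.0104) are near-identical copies, so the division of counts between them is uncertain. The call of Hspa1a was lost without WT heart 5, 6 or 8 and by voom (adjusted p from 0.0679 to 0.0815), and that of Hspa1b without WT heart 6 (0.0529). Without HVCN1 null heart 1 the log2 fold changes were 1.98 for Hspa1a and 2.33 for Hspa1b. Heart 1 was the highest for all 3, not heart 2, and their r with the member mean lay between 0.41 and 0.44. The summed level of the heat shock list had r -0.32 with it, and the next largest log2 fold change, 0.31 for Hsph1, did not pass the test (adjusted p = 0.789).

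Glucocorticoid targets and clock genes were examined because several are induced by the hormone that accompanies handling or follow the hour of the day. Both lists were chosen with earlier results of these data known, so their counts describe the lists and are no independent test. Of 11 glucocorticoid targets tested, 4 had an unadjusted p under 0.05, against 11.0% of all tested genes. Per1 was called higher and Pdk4, a brake on glucose oxidation, lower, where 1.14% of all tested genes were called. Per1, which belongs to both lists, was at 96.9, 103, 96.8 and 65.1 CPM in HVCN1 null hearts and 56.8, 38.9, 42.4 and 37.3 CPM in WT hearts (log2 fold change 1.04, SE 0.17, adjusted p = 0.0178). The call was lost without HVCN1 null heart 1 or 3 or WT heart 6 or 8 (adjusted p from 0.0556 to 0.0776). As for Nr4a1 and Nr4a3, heart 4 was the lowest of the HVCN1 null hearts. Pdk4 was at 154 to 340.1 CPM in HVCN1 null hearts and 368 to 811 CPM in WT hearts (log2 fold change -1.35, SE 0.28, adjusted p = 0.0493), a call lost in 10 of 16 alternatives, among them without HVCN1 null heart 1, 2 or 3 or WT heart 5, 6 or 7 (adjusted p from 0.0909 to 0.163). Fkbp5 (0.53, adjusted p = 0.362) and Errfi1 (0.48, adjusted p = 0.389) did not pass the test. Fkbp5 had the highest r of that list with the member mean, 0.73. Among 16 clock genes 7 had an unadjusted p under 0.05, against 11.0% of all tested genes. Per1 alone was called, where 1.14% of all tested genes were. Per2 (1.17, adjusted p = 0.0527), Dbp (0.99, adjusted p = 0.264) and Ciart (0.85, adjusted p = 0.135) were not called. Bhlhe41 had the lowest r with the member mean, -0.56. The summed levels had r -0.46 for the glucocorticoid targets and 0.24 for the clock genes. Acta2, the smooth muscle actin, was the only called gene among the cell type markers (log2 fold change 1.32, adjusted p = 0.0466), where 1.14% of all tested genes were called. Of the 6 smooth muscle and pericyte markers 3 had a positive and 3 a negative log2 fold change, with a median of 0.02. The call of Acta2 was not put through the alternatives. The part of collection hour, handling or cell makeup in these values was not tested.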

How the data were processed

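RNA from 4 HVCN1 null and 4 WT hearts was sequenced as poly-A selected paired reads, aligned by the authors with STAR and counted per gene with featureCounts, as the labels and the methods state. The table the authors deposited gives raw counts, not normalized, with a column for each heart. The labels name mm10 and GRCm38, the methods text names hg38, and the identifiers are mouse Ensembl genes. Versions, annotation and strand setting are not given in the sources used here. Symbols and positions came from GENCODE M21 on GRCm38, to which 38872 identifiers (99.5%) matched without their version, and older symbols were matched through RefSeq synonyms.

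In R 4.3.3, edgeR 4.0.16 gave TMM-scaled CPM and log2 CPM, the latter with a prior count of 2. The filter filterByExpr left 14796 genes, which were tested for differences by the quasi-likelihood test of edgeR, with Benjamini-Hochberg adjustment over all of them at 0.05. Single members were also tested by two-sided exact permutation of mean CPM over 70 assignments, unadjusted, and single pairs by exact permutation over 40320 pairings. Every printed correlation is over the 8 hearts unless hearts are named as left out. For gene lists, the summed CPM was taken to log2 before it was correlated with the member mean. Each library is from a separate mouse according to the methods, and no pair of libraries agreed within sampling noise (lowest chi-square per degree of freedom 16.5). RPKM used the summed exon length. DESeq2 1.42.0, limma 3.58.1 and other scalings and filters were alternatives. Promoter windows were searched with Python 3.11.15 and pandas 2.3.3, and the motifs were chosen after the sequences were seen. Plots were made with matplotlib 3.10.9. The scripts were tested on simulated data.

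The members and lists were chosen with earlier results of these data known. The genes named are the 10 members, those of each wider list that passed the test, its 4 largest absolute log2 fold changes and its extremes of r with the member mean, and the 10 genes most like that mean, of which 1 is not reported here. The pairs named are the highest, lowest and median r, and Fos with Fosb, Jun, Egr1 and Dusp1, and Egr1 with Nr4a1. Cell type lists were cardiomyocyte, atrial, endothelial, fibroblast, smooth muscle and pericyte, macrophage, neutrophil, T cell, B cell, erythroid and adipocyte markers. Not tested for low counts were Fosl1, Egr4, Il6, Tat and Ly6g. Adjusted p-values of single genes are those of edgeR's quasi-likelihood test.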

Additional observations from a re-analysis of the deposited data

Results flagged for a closer look

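Levels of 42 genes in 84 groups of 4 hearts were examined for a heart far from the other 3, by Dixon's criterion at the 95% level, and 6 were found. Chance flags about 1 in 20 such groups. Among the members, Fos was at 4.30 CPM in WT heart 6 against 10.2 to 11.1 CPM in the other WT hearts, and Ier2 was at 21.9 CPM in WT heart 5 against 14.2 to 15.1 CPM. Plk3, a primary response kinase, was at 5.37 CPM in HVCN1 null heart 4 against 7.33 to 7.68 CPM. Per1 was at 65.1 CPM in the same heart against 96.8 to 103 CPM. Hspa1b was at 40.4 CPM in HVCN1 null heart 1 against 9.89 to 15.1 CPM, and Hspa1a at 3.31 CPM in WT heart 7 against 2.63 to 2.73 CPM.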

How the results depend on the processing

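Of 160 values of single members under alternatives, 152 kept their direction and side of the threshold, 7 changed sign and 1 passed the threshold, Jun by DESeq2. The members called were 0 in every alternative but DESeq2, which called 1, and 0 with each heart left out. The DEGs over all tested genes, 169 in all, were 367 by edgeR's exact test, 376 by its likelihood ratio test and 466 by DESeq2, and 71 to 152 with a heart left out. The members at an exact permutation p of 0.05 or less, 1 in all hearts, were 0 to 1 with a heart left out, and the 1 was Nr4a1 rather than Jun without HVCN1 null heart 4. Pairs with r of at least 0.7, 18 in all, were 10 to 23 with a heart left out. They were 13 by Spearman rho, 14 with CPM on the linear scale and 9 without hearts 4 and 6. Without Egr2 and Fosb 12 pairs reached 0.7, but out of fewer than 45 pairs, and the median r was 0.67. With all 10 members the median r was 0.51 to 0.71 with a heart left out and 0.24 without hearts 4 and 6. These last alternatives, without 2 hearts or 2 genes, were chosen after seeing the data. The log2 fold change of Fos, -0.04, ran from -0.31 to 0.19 with a heart left out and was 0.19 without HVCN1 null heart 4 and 0.03, 0.07 and 0.07 without WT hearts 5, 7 and 8. That of Egr2, -0.11, ran from -0.43 to 0.13 and was 0.01 and 0.13 without HVCN1 null hearts 3 and 4 and 0.08 without WT heart 5. Map2k6 (0.01) ran from -0.14 to 0.17 and Bhlhe41 (-0.01) from -0.10 to 0.084 with a heart left out, and Bhlhe41 was 0.031 without scaling. Scaling moved the median log2 fold change of all genes from -0.01 (TMM) to 0.001 (RLE) and 0.03 (none). For Jun the adjusted p ran from 0.0357 to 0.496. The cause of these changes was not tested. No paired analysis was possible because the labels give no pairing between HVCN1 null and WT hearts.

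With 4 hearts per genotype, intervals of members such as Fos and Egr2 span changes in both directions, and 8 hearts give wide error on any r. No stimulus is named, batches are not given, and hearts differed in atrial RNA. At 21 counts, the lowest for Egr2, counting alone gives an error of 21.8%, beside a coefficient of variation of 41.2% over the 8 hearts.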
